A study of Mus musculus with 4 samples.

Results

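The MLL-AF9 fusion protein works through a small set of partner proteins, and the genes of 9 of them were examined here in MLL-AF9 leukemia-initiating cells (LICs): Kmt2a, Men1, Psip1, Mllt3, Mllt1, Dot1l, Aff1, Aff4 and Cdk9. They were chosen by name for their place in the menin, DOT1L and super elongation complexes, with earlier results of these data known, and all 9 of them were found among the 27179 genes of the table, which lists genes by NCBI number. By the labels, the cells were leukemia stem cells (LSC) isolated by FACS from the bone marrow of a murine acute myeloid leukemia (AML) model. The gate is not given for these libraries. The study defines LICs as Mac-1+/c-Kit+, and its sequencing methods speak of RNA from tissue and name no sort. By the study's methods, Lin- fetal liver cells were infected with an MSCV-MLL-AF9-IRES-YFP retrovirus and transplanted into lethally irradiated C57BL/6 mice. The WT group (2 libraries) came from wild type cells and the CD274-null group (2 libraries) from cells of the CD274-/- genotype, both on the C57BL/6 strain, with an age of 6 weeks given in the labels and the same retroviral oncogene in both. The libraries asked which genes change in LICs when CD274 (PD-L1, the ligand of the checkpoint receptor PD-1) is absent. The sources do not say whether a library holds 1 mouse or a pool, nor from which round of transplantation the cells came, so p-values measure the spread between these libraries only.

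MLL, the product of Kmt2a, is a histone H3 methyltransferase that keeps developmental genes such as the HOXA genes active. The fusion keeps the N-terminal part of MLL, which binds chromatin together with menin and LEDGF, and replaces the rest by the C-terminal part of AF9. That part of AF9 recruits DOT1L, another H3 methyltransferase, and the super elongation complex, in which AF4 family scaffolds hold the kinase P-TEFb (CDK9 with a cyclin T) that releases paused RNA polymerase II. Drugs against menin and DOT1L act on this machinery in MLL-rearranged leukemia.

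Summed over genes, the reads recovered from the FPKM values were 11048767 and 9740856 for WT and 8452662 and 9520926 for CD274-null. The WT libraries held Cd274 itself at 2.80 and 0.945 FPKM and the CD274-null libraries at 1.43 and 2.29, so it did not separate the labels. WT and CD274-null below mean the libraries so labelled, and a value per gene does not show which part of Cd274 was read. Both genes of the Mac-1+/c-Kit+ definition were detected, Itgam (Mac-1) at an FPKM of 100 to 174 and Kit at 6.59 in WT replicate 1 and 16.2 to 19.5 in the other libraries. WT replicate 2 stood apart in granule genes of maturing neutrophils. The summed FPKM of 5 markers (Ltf, Camp, Ngp, Mmp8 and Retnlg) was 1765 there and 4804 to 10707 elsewhere. The summed FPKM of the 5 erythroid markers in the table was 55.2 in that library and at most 4.50 elsewhere. The 5 plasma cell markers summed to 9.13 and 8.84 in WT and to 227 and 200 in CD274-null libraries, of which Igkc alone made up 8.64 and 7.98 and then 214 and 189. Jchain had 0.370 and 0.514 against 12.3 and 10.5. Both were candidates and were among the 10 tested genes with an adjusted p under 0.05 (Igkc 0.00245, Jchain 0.0369, limma). Sdc1, Mzb1 and Tnfrsf17 of this list were too low to be tested, at most 0.998 in any library. The groups overlapped for Sdc1, and the CD274-null values were the higher ones for Mzb1 and Tnfrsf17. The 5 B cell markers summed to 12.8 and 36.5 against 36.4 and 39.1, so the groups overlapped, and most of each sum was Cd79b (12.8 and 36.2 against 35.6 and 37.4), while Ms4a1 and Pax5 were at 0 in both WT libraries and at most 0.416 elsewhere. The 5 T cell markers summed to at most 3.13. The 6 macrophage markers summed to 147 and 142 in the WT libraries, above the 89.0 and 105 of the CD274-null libraries. Most of each sum was Vcam1, a candidate by the rule given below, at 117 and 92.3 against 53.7 and 59.8. The other markers did not share this fall as a set, since of the 5 tested 3 were higher in CD274-null and 2 lower. Adgre1 had 22.2 and 47.1 against 28.4 and 42.6, with overlap of the groups. The part of these cells in the values below was not tested.

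All 9 genes were expressed in every library, and none of them passed the test between WT and CD274-null LICs. FPKM divides the fragments of a gene by its length and by the size of the library. A comparison between genes thus rests on the lengths used, which are not given in the sources used here. The length implied by the recovered reads, known up to a shared factor, was 4376 bases for Aff1 and 1745 for Cdk9, against longest transcripts of 8323 and 3565 bases, and lay closer to the longest transcript for the other 7 genes. The groups were compared by limma on log2(FPKM + 0.5), and candidates were genes that differed by more than 1.5-fold at an unadjusted p below 0.01. Among the 9 genes 0 were candidates, 0 had an unadjusted p under 0.05 and 0 an adjusted p under 0.05. Of the 13230 tested genes 3.63% were candidates (2.39% higher and 1.24% lower in CD274-null), 13.7% had such an unadjusted p and 0.0756% such an adjusted p. In bulk RNA, fewer cells of a type and less RNA per cell cannot be told apart. With limma's voom on the recovered reads 0 of the 9 were candidates as well. The log2 fold changes, CD274-null minus WT and called estimates below, ran from -0.35 (Aff1) to 0.56 (Mllt3), 7 of them above 0 and 2 below, with a median of 0.20 against 0.01 over all tested genes. The groups did not overlap in 6 of the 9 genes, with the CD274-null values above in 4 and below in 2. The same was true of 47.3% of all tested genes, 25.6% above and 21.8% below. The 95% interval of every fold change included no change, and each also included a 1.5-fold change in the direction of its estimate, so these libraries could not tell such a change from none. The interval reached 0.50 (Aff1) to 0.81 (Mllt3) to either side on the log2 scale.

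**Figure D1:**
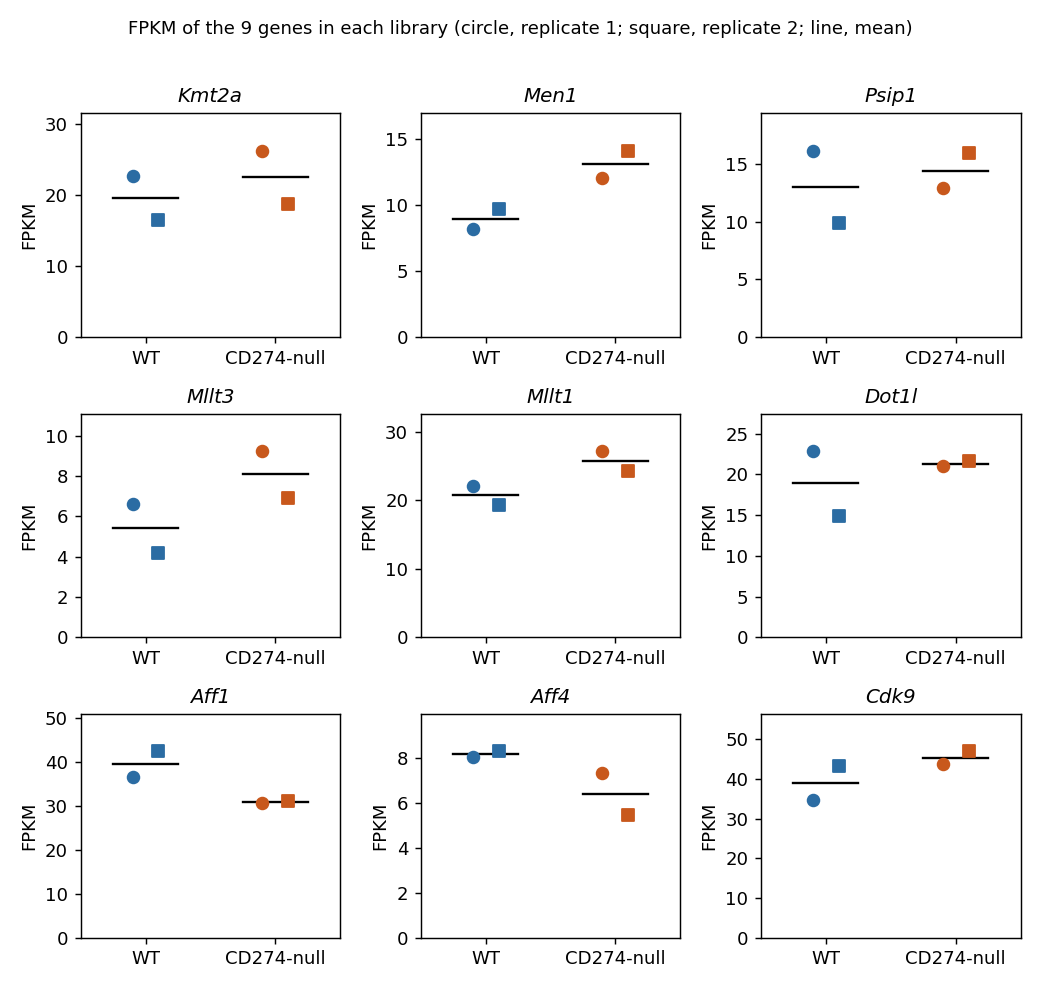
FPKM of each of the 9 genes (vertical axis, linear from 0) in the 2 WT libraries (blue) and the 2 CD274-null libraries (orange); circles are replicate 1, squares replicate 2 and lines the means. The groups overlap for Kmt2a, Psip1 and Dot1l, the CD274-null values lie above for Men1, Mllt3, Mllt1 and Cdk9, and they lie below for Aff1 and Aff4.

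The level of the 9 genes spanned from an FPKM of 4.19 to one of 47.0. Averaged over all 4 libraries, Cdk9 was the highest with 42.2 ± 5.25 (SD, n = 4), above 82.4% of the tested genes. Aff1 followed with 35.2 ± 5.57, and the ranges of the 2 genes overlapped. Mllt1 (23.2 ± 3.33), Kmt2a (21.0 ± 4.33) and Dot1l (20.1 ± 3.56) formed a middle group whose ranges overlapped each other. The step from Aff1, which was never below 30.7, to Mllt1, never above 27.2, was the only step between neighbours in this order at which the ranges did not overlap. Aff1 and Cdk9 were also the genes whose implied length lay furthest below the longest transcript (4376 against 8323 bases and 1745 against 3565). With longer lengths their FPKM would be lower, so their place in this order and this step rest on the lengths used. Psip1 (13.8 ± 2.96) and Men1 (10.99 ± 2.63) came next. Aff4 (7.29 ± 1.27) and Mllt3 (6.75 ± 2.07) were the lowest and exchanged places between libraries. Men1, which encodes the scaffold that both MLL and the fusion need, was measured at a lower FPKM than Kmt2a in all 4 libraries, with a Kmt2a to Men1 ratio of 2.79 and 1.70 in WT and of 2.18 and 1.33 in CD274-null LICs.

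Kmt2a (gene number 214162; GRCm38 chromosome 9, 44803355 to 44881352) encodes MLL itself; all coordinates are of this build. WT libraries held it at 22.7 and 16.4 FPKM and CD274-null libraries at 26.2 and 18.7, from 4315, 2748, 3814 and 3067 reads in that order. The groups overlapped, since the lower CD274-null value lay below the higher WT value, and the 1.38-fold and 1.40-fold differences within the groups were larger than the difference between the group means. On the log2 scale the estimate was 0.20 (SE 0.28), at an adjusted p = 0.793 by limma. Of its exon bases, 2.30% overlap an annotated gene on the opposite strand. Kmt2a and Mllt3 supply the parts of the fusion gene, and a value per gene does not separate reads of the mouse genes from reads of the retroviral fusion that aligned to them, which were not told apart here.

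Men1 (chromosome 19, 6334979 to 6340894) encodes menin, which tethers MLL and its fusions to chromatin. It had an FPKM of 8.13 and 9.66 in WT LICs and of 12.1 and 14.1 in CD274-null LICs, from 286, 299, 324 and 427 reads. Both CD274-null values exceeded both WT values, and the libraries of a group lay closer to each other than the groups did. The means were 8.90 ± 1.08 (SD, n = 2) and 13.1 ± 1.45 (SD, n = 2), an estimate of 0.53 with a 95% interval from -0.09 to 1.15. Its unadjusted p of 0.0806 was the smallest of the 9 genes, and the adjusted p was 0.415 from limma. With each library corrected for the GC content of its transcripts, the log2 fold change of Men1 was 0.31.

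Psip1 (chromosome 4, 83455680 to 83486463) encodes LEDGF, the chromatin reader that joins menin and MLL to gene bodies. WT libraries held it at 16.2 and 9.91 FPKM, CD274-null libraries at 12.9 and 16.0. The CD274-null values lay between the WT values, which differed 1.63-fold from each other, more than the WT libraries did for any other of the 9 genes. The estimate was 0.17 (SE 0.31), at an adjusted p = 0.837 by limma. The gene makes a long and a short protein form from the same promoter, and 1 value per gene does not separate them.

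Mllt3 and Mllt1 encode AF9 and ENL, paralogs that read acylated histones through their YEATS domain and recruit either DOT1L or the super elongation complex through the C-terminal domain that the fusion retains. Both carried higher values in CD274-null than in WT LICs, without passing the test. Their upstream sequences are shown so that the paralogs can be set side by side. Windows of 250 bases before the RefSeq start (GRCm38.p6) were searched. The whole window of Mllt3 at chr4:88033408-88033657 and the first 129 bases of that of Mllt1, at chr17:56935510-56935638, outside the annotated gene, are given, both on the minus strand and written 5′ to 3′ on the gene's strand, with each GC box (GGGCGG on either strand) in capitals.
Mllt3: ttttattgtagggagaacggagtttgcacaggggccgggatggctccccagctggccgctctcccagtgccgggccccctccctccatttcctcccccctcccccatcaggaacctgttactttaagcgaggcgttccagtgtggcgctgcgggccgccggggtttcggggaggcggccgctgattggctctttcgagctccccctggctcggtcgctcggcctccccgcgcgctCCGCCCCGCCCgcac
Mllt1: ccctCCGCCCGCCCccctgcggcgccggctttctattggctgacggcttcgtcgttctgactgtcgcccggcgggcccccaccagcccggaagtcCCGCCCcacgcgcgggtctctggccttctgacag
The whole Mllt3 window held 2 GC boxes and 23 CpG dinucleotides at a GC content of 69.2%, and the whole Mllt1 window 7 GC boxes, counting overlapping ones, and 37 CpG at 77.6%. Over all 32851 promoter windows of this length the median was 6 CpG and a GC content of 52.4%, and 32.7% of windows held a GC box. RefSeq lists another start of Mllt3 inside the gene, whose window (chr4:87806324-87806573) had 4 CpG and no GC box. A match to these letters is a description and not a binding site.

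The Mllt3 gene (chromosome 4, 87769925 to 88033407) was measured at 6.63 and 4.19 FPKM in WT and at 9.24 and 6.93 in CD274-null LICs (477, 265, 508 and 429 reads). WT replicate 2 was the lowest, and its 95% counting interval of 3.70 to 4.72 (exact Poisson, counting error only) did not reach the next value. The lower CD274-null value was close to the higher WT value, 6.93 against 6.63. The means were 5.41 ± 1.73 (SD, n = 2) and 8.09 ± 1.63 (SD, n = 2), an estimate of 0.56 with a 95% interval from -0.26 to 1.37 (adjusted p = 0.503 from limma). With all 4 libraries this was the largest estimate among the 9 genes, and also the least precise. It was 0.25 without WT replicate 2 and 0.86 without WT replicate 1. Men1 had the larger estimate without WT replicate 2 (0.65) and without CD274-null replicate 1 (0.64 against 0.36 for Mllt3).

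Mllt1 (chromosome 17, 56892608 to 56935509) was measured at 22.1 and 19.3 FPKM in WT and at 27.2 and 24.3 in CD274-null libraries. The groups did not overlap, and the libraries within each group differed by 1.14-fold in WT and 1.12-fold in CD274-null. The estimate was 0.31 with a 95% interval from -0.22 to 0.84 (adjusted p = 0.558 from limma), and it was 0.03 after GC correction. Its longest transcript, with a GC content of 59.5%, was the most GC-rich of the 9. Mllt1 was higher than Mllt3 in every library, 3.33-fold and 4.62-fold in WT and 2.94-fold and 3.50-fold in CD274-null LICs, so the ratio of ENL to AF9 transcripts overlapped between the groups.

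Dot1l (chromosome 10, 80755101 to 80795461) encodes the H3 methyltransferase that AF9 and ENL bring to MLL fusion targets. WT libraries held it at 22.9 and 14.9 FPKM, CD274-null libraries at 21.0 and 21.6. The CD274-null values nearly coincided and lay within the range of the WT values. Its estimate of 0.20 (SE 0.27, adjusted p = 0.775 by limma) turned to -0.040 after GC correction and to -0.10 without WT replicate 2.

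In the super elongation complex the scaffold genes Aff1 and Aff4 had lower values in CD274-null LICs and the kinase gene Cdk9 higher ones, again without passing the test. Aff1 encodes AF4, itself a frequent fusion partner of MLL in acute lymphoblastic leukemia, and Aff4 encodes its paralog AF5Q31. The windows before their starts are shown, since these were the 2 of the 9 genes with lower CD274-null values. They lie on the plus strand, at chr5:103753912-103754161 for a start inside the Aff1 gene and at chr11:53350517-53350639 for the first 123 bases of the Aff4 window, outside the annotated gene, with GC boxes in capitals as before.
Aff1: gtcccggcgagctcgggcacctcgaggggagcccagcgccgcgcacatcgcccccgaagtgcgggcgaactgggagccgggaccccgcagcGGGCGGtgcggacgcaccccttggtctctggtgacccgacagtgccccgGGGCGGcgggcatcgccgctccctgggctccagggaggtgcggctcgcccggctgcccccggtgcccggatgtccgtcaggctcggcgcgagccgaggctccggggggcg
Aff4: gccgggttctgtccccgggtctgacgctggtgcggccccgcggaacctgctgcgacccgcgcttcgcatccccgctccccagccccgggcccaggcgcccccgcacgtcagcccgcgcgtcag
The Aff1 window shown held 2 GC boxes, 35 CpG and a GC content of 78.8%, the other Aff1 window in the table (chr5:103754323-103754572) 3 GC boxes, 20 CpG and 66.4%, and the whole Aff4 window 34 CpG and 79.2%, with no GC box and with 1 E-box (CACGTG, present in 6.02% of all windows). Of the 8 members with a window in the RefSeq table, 7 had at least 1 window with a GC box, 4 one with CCAAT and 0 one with TATAAA, each searched on both strands. Counted by window, 10, 7 and 0 of their 12 windows held these motifs, beside 32.7%, 33.8% and 12.4% of all windows. Windows of the same gene can overlap. Men1 had 8 to 10 CpG in its 3 listed windows.

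Aff1 (chromosome 5, 103692362 to 103855322) was measured at 36.7 and 42.5 FPKM in WT and at 30.7 and 31.1 in CD274-null libraries. Both CD274-null values lay below both WT values and differed by 1.012-fold. The means were 39.6 ± 4.06 (SD, n = 2) and 30.9 ± 0.263 (SD, n = 2), an estimate of -0.35 with a 95% interval from -0.85 to 0.15 (adjusted p = 0.494 from limma). Aff1 rested on at least 1153 reads per library, a lower bound because the reads of the 4 libraries may share a factor. Its interval was the narrowest of the 9 genes, and under the alternatives tried the estimate stayed between -0.45 and -0.25.

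Aff4 (chromosome 11, 53350640 to 53421830) was measured at 8.04 and 8.30 FPKM in WT and at 7.32 and 5.48 in CD274-null libraries (946, 859, 658 and 555 reads). The WT libraries nearly coincided, while CD274-null replicate 2 was the lowest. The estimate was -0.34 with a 95% interval from -1.03 to 0.34 (adjusted p = 0.615 from limma), -0.15 without that library and -0.54 without CD274-null replicate 1. Aff1 exceeded Aff4 by 4.57-fold and 5.12-fold in WT and by 4.19-fold and 5.67-fold in CD274-null LICs, and this balance of the paralogs overlapped between the groups.

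Cdk9 (chromosome 2, 32705782 to 32712784), the kinase subunit of P-TEFb, was measured at 34.7 and 43.2 FPKM in WT and at 43.7 and 47.0 in CD274-null libraries. The higher WT value and the lower CD274-null value lay within each other's 95% counting interval, 40.2 to 46.5 and 40.4 to 47.2. Cdk9 differed by 0.22 on the log2 scale (95% interval -0.30 to 0.75, adjusted p = 0.671 from limma), by 0.067 without WT replicate 1 and by 0.38 without WT replicate 2.

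**Figure D2:**
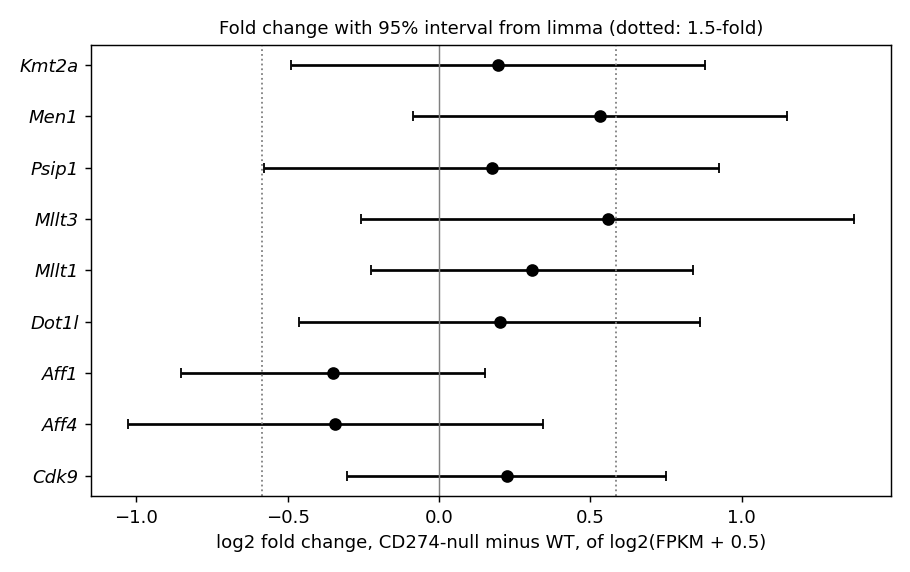
Log2 fold change of CD274-null against WT LICs (horizontal axis, on the log2(FPKM + 0.5) scale) for the 9 genes, with bars for the 95% interval from limma and dotted lines at a 1.5-fold change. The estimates run from -0.35 to 0.56 and every interval includes 0.

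WT replicate 2 held the lowest FPKM of 5 of the 9 genes, Kmt2a, Psip1, Mllt3, Mllt1 and Dot1l, and of 24.2% of all tested genes. It held the highest FPKM of 2 of the 9, Aff1 and Aff4, and of 29.2% of all tested genes. This is the library in which neutrophil granule markers summed to 1765 and erythroid markers to 55.2, and the part of these cells was not tested. Without it, the estimates of Kmt2a, Psip1 and Dot1l lay below 0 (-0.032, -0.17 and -0.10) and did not pass the test, and the median over the 9 genes was -0.032 with 4 of 9 above 0. Without WT replicate 1 the median was 0.41 with 7 of 9 above 0. Leaving out CD274-null replicate 1 turned Kmt2a to -0.042. The estimates of Men1, Mllt3, Mllt1 and Cdk9 stayed above 0, and those of Aff1 and Aff4 below 0, with each library left out and in the other fits tried, but their sizes moved, for Mllt3 and Cdk9 over the ranges given above. Fold change and transcript GC content had a Spearman's rho of 0.271 over the 11435 genes with both, a description across genes, which are not independent replicates. The GC content of the longest transcript was 57.0% to 59.5% for Men1, Dot1l and Mllt1, whose estimates moved toward 0 or below it with GC correction. It was 41.4% for Mllt3 and 42.5% for Psip1, whose estimates became 0.69 and 0.31.

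**Figure D3:**
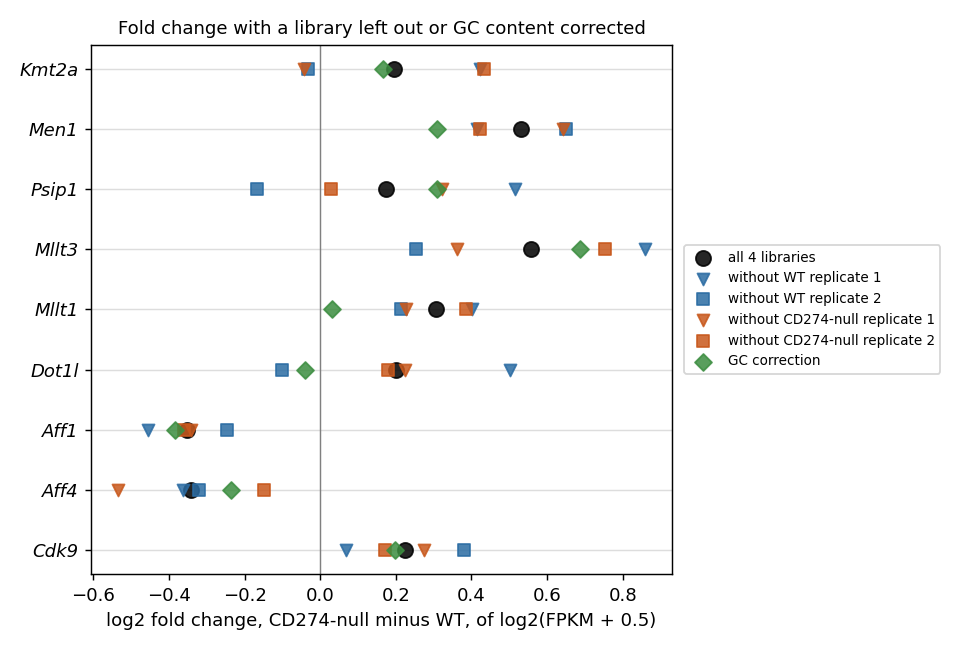
Log2 fold change of each of the 9 genes (horizontal axis, CD274-null minus WT) with all 4 libraries (black), with 1 library left out (triangles for replicate 1 and squares for replicate 2, blue for WT and orange for CD274-null) and with correction for GC content (green). Kmt2a, Psip1 and Dot1l cross 0, and the other 6 genes stay on 1 side.

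The genes with the most similar pattern over the 4 libraries were looked up for the members with the largest and the smallest absolute log2 fold change, Mllt3 and Psip1, by the Euclidean distance of log2(FPKM + 0.5) centred on each gene's mean. For Mllt3 they were Hnrnpa1 (distance 0.05, 24.7 and 15.9 against 33.3 and 26.5 FPKM), Ivns1abp (0.06) and Chid1 (0.06). For Psip1 they were Polr2k (0.03), D030056L22Rik (0.04) and Pram1 (0.06). With 4 libraries such a likeness is a description only.

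The other genes of these complexes were taken from 6 lists of subunits, partners and regulators and from a list of target genes, 56 genes in all. Of these, 53 were tested and 4 were candidates: Mepce and Paf1 were higher in CD274-null LICs, and Aff2 and Cdk6 were lower. All 4 had an adjusted p of at least 0.172 from limma, so 0 passed after Benjamini-Hochberg adjustment, and 9 of the 53 had an unadjusted p under 0.05. Over all tested genes 3.63% were candidates and 13.7% had such a p. The median log2 fold change was 0.09 over the 53 and 0.01 over all tested genes.

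Mepce (chromosome 5, 137781906 to 137786701), the capping enzyme of the 7SK RNA that holds P-TEFb inactive, had the largest estimate of the lists. WT libraries held it at 29.0 and 19.1 FPKM and CD274-null libraries at 55.8 and 98.0, from 1061, 617, 1563 and 3089 reads. The groups did not overlap, and the CD274-null libraries differed from each other as well. By limma, Mepce differed by 1.63 on the log2 scale (SE 0.34, adjusted p = 0.251). It was no candidate without CD274-null replicate 2 (1.23) or without WT replicate 2 (1.34). Of the 7SK genes Hexim1, Hexim2 and Larp7, 0 were candidates, with log2 fold changes from -0.33 to 0.23. Hexim1, the inhibitor within the 7SK particle, had 70.4 and 49.3 in WT against 50.7 and 95.02 in CD274-null LICs, its highest value in the same library as that of Mepce.

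Aff2 (chromosome X, 69360190 to 69872054), a further AF4 family gene, was measured at 5.53 and 4.73 FPKM in WT and at 1.66 and 1.34 in CD274-null libraries (287, 216, 66 and 60 reads). The estimate was -1.49 (SE 0.33, adjusted p = 0.251 by limma). It was no longer a candidate with any of the 4 libraries left out, at -1.39 without WT replicate 1, -1.59 without WT replicate 2, -1.61 without CD274-null replicate 1 and -1.38 without CD274-null replicate 2. The remaining AF4 family gene, Aff3, was under the filter and had 1 and 2 reads in WT and 8 and 79 reads in CD274-null libraries. It was singled out after its values were seen, and 1 library held most of its reads. Of the other super elongation complex genes, Ell, Ell2, Eaf1, Ccnt1 and Ccnt2 were tested and 0 were candidates. The CDK9 partner Ccnt1 had 19.8 and 14.7 in WT against 10.3 and 9.14 in CD274-null LICs (-0.78 on the log2 scale, adjusted p = 0.313 by limma), and its alternative Ccnt2 had 21.2 and 19.0 against 22.2 and 19.0. Ell3 and Eaf2 were under the filter, with at most 5 and 7 reads per library.

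In the PAF1 complex, which binds MLL and travels with elongating polymerase, Paf1 (chromosome 7, 28392996 to 28399383) was measured at 37.9 and 42.4 FPKM in WT and at 65.4 and 70.9 in CD274-null libraries. The estimate was 0.76 (SE 0.20, adjusted p = 0.274 by limma). It stayed a candidate in 4 of 16 alternatives, and leaving out any of the 4 libraries ended the call, at 0.68 without WT replicate 1, 0.84 without WT replicate 2, 0.81 without CD274-null replicate 1 and 0.70 without CD274-null replicate 2. The subunit with the largest estimate was Ctr9, with 11.1 and 17.3 in WT against 25.3 and 22.7 in CD274-null LICs (0.77, adjusted p = 0.334 by limma). Leo1 had 27.6 and 20.7 against 15.6 and 14.8 (-0.64, adjusted p = 0.348 by limma). Of the 6 subunits tested, 2 had estimates above 0 and 4 below.

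Among the 13 genes of H3 methyltransferases, their subunits and MLL-associated factors, which include the MLL protease gene Tasp1 (-0.75) and the LEDGF paralog Hdgfl2 (0.40), 0 were candidates, with 7 estimates above 0 and 6 below. Setd1b, a methyltransferase of another complex, had the largest one, with WT values of 6.60 and 7.07 FPKM and CD274-null values of 15.1 and 11.96 (0.93, adjusted p = 0.284 by limma). The core subunits that MLL shares with its relatives had estimates on both sides of 0. Ash2l had 45.3 and 51.7 in WT against 38.8 and 31.2 in CD274-null LICs, and Wdr5 had 90.7 and 79.6 against 68.7 and 56.3, whereas Rbbp5 and Dpy30 had log2 fold changes of 0.16 and 0.19. The partners of DOT1L and AF9, namely Mllt10, Mllt6, Cbx8 and Bcor, held 0 candidates. Cbx8 had the largest estimate, 0.61, and its FPKM was 4.90 in WT replicate 1 against 11.4 to 14.3 in the other libraries. Of 8 genes of pausing and elongation 0 were candidates, and the largest estimate was that of Polr2a, the catalytic subunit of RNA polymerase II, with 79.8 and 85.6 in WT against 91.7 and 174 in CD274-null LICs (0.61, adjusted p = 0.454 from limma). CD274-null replicate 2 held the highest values of Mepce, Hexim1 and Polr2a, which were put together after their values were seen. In the same lists it held the lowest values of Hexim2, Larp7, Ccnt1 and Eaf1, among others. Of all tested genes, 21.0% were highest and 35.3% lowest in this library.

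**Figure D4:**
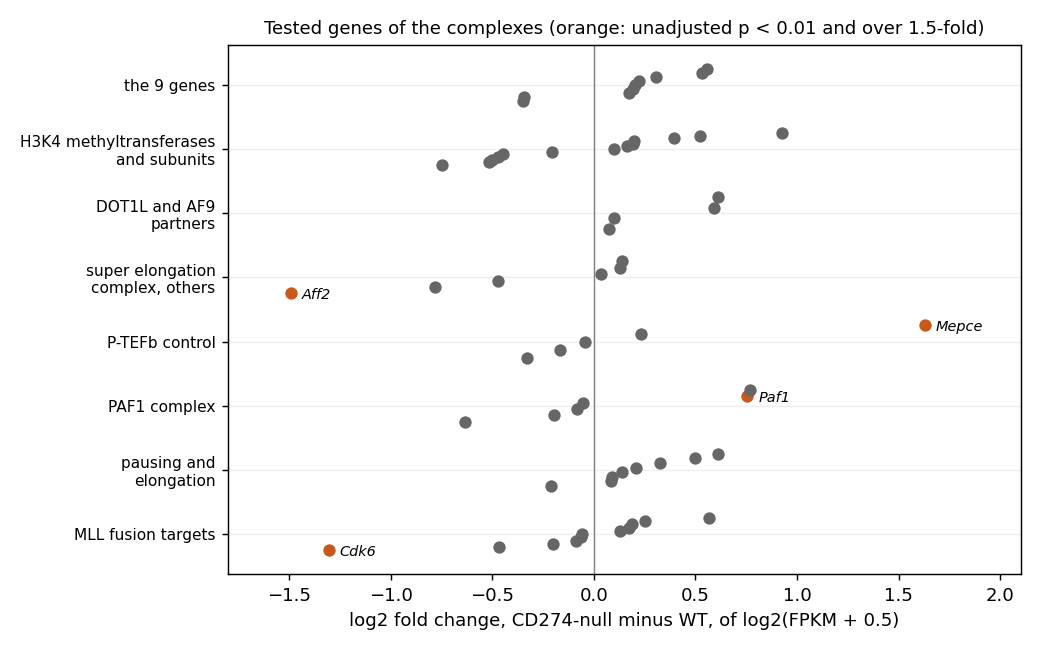
Log2 fold change (horizontal axis, CD274-null minus WT) of every tested gene of the complexes, by list, with 1 point per gene and candidates in orange. The 9 genes lie between -0.35 and 0.56, and the 4 candidates Mepce, Paf1, Aff2 and Cdk6 lie in 4 different lists.

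Targets through which MLL fusions act were described by 11 genes, of which 1 was a candidate, beside the 3.63% of all tested genes. This was Cdk6, with WT values of 102 and 112 FPKM and CD274-null values of 47.5 and 38.9, an estimate of -1.31 (adjusted p = 0.172 by limma) and of -1.16 without CD274-null replicate 2, where it was no candidate. Of the other 10 targets 0 were candidates. Hoxa9 had 75.8 and 74.3 in WT against 71.3 and 72.9 in CD274-null LICs (-0.06 on the log2 scale, 95% interval -0.53 to 0.41), and Meis1 had 35.6 and 36.3 against 44.6 and 37.9 (0.19, 95% interval -0.31 to 0.69). Hoxa10 had 34.4 and 38.1 against 28.1 and 24.2 (-0.46), and Myb had 192 and 277 against 318 and 368 (0.57). The groups did not overlap in 6 of the 11 targets, Hoxa9, Meis1, Hoxa10 and Myb among them, beside 47.3% of all tested genes. Pbx3 varied most among the libraries, at 7.15 and 33.6 against 13.6 and 21.5.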

How the data were processed

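RNA of LICs (sorted, per the labels) was sequenced in 2 WT and 2 CD274-null libraries (TruSeq v2). The values are FPKM as deposited by the authors, 1 for each gene in each library. The submitters' processing notes name CASAVA 1.8.2, TopHat2 2.0.12 and GRCm38; the program, gene lengths and strand setting behind FPKM are not given in the sources used here. Gene numbers were matched to RefSeq symbols of GRCm38.p6 (25275 of 27179 matched), and 0 sample columns were left unassigned. The 9 genes and all lists were chosen with earlier results of these data known.

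Whole reads were recovered from ratios of FPKM between libraries for 17083 of 17083 genes above 0 in at least 2 libraries (17078 within a tolerance of at most 0.00164 reads, 5 within at most 0.00536), apart from a possible factor shared by all 4. Per gene and library the 9 genes rested on 265 to 4315 reads, which set the counting error only. Intervals from reads are exact Poisson and cover counting error only.

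Genes averaging an FPKM of 0.5 or more (13230) were compared on log2(FPKM + 0.5) by limma 3.58.1 (R 4.3.3, lmFit and trended eBayes, no covariates), with Benjamini-Hochberg adjustment over all of them. The fold change understates changes of low genes. Named genes were the 9, candidates of the lists, the largest estimate of each list, and the 3 genes nearest in pattern to 2 of the 9; core subunits and further examples were named after their values were seen. Alternatives were other pseudocounts (1 and 0.1), filters (none, or a mean FPKM of at least 5), quantile or median scaling, eBayes without trend, no moderation, the replicate number as block, voom on recovered reads, GC correction (loess, span 0.3, longest GENCODE M21 transcript), alone and with the block, and leaving out each library. Promoter windows came from RefSeq and motifs were searched in Python 3.11.15; Psip1 is named only. Some genes of the lists are not reported here.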

Additional observations from a re-analysis of the deposited data

How the results depend on the processing

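Of the 9 genes 0 were candidates in every alternative run, and the smallest unadjusted p was 0.0586 among the other fits and 0.0637 with a library left out (limma), where a lone library is assumed to vary like the other group. Without moderation 170 of all tested genes were candidates against 480, and 0 of the listed other genes against 4; with a mean FPKM of at least 5, 2 of those were. With each library left out in turn, candidates ran from 147 (without CD274-null replicate 2) and 235 (without CD274-null replicate 1) to 634 over all genes and from 0 (without CD274-null replicate 2) to 4 among the listed genes, with 2 without WT replicate 1 and 2 without CD274-null replicate 1, and the median over the 9 genes from -0.032 (without WT replicate 2) to 0.41 (without WT replicate 1). Estimates that turned were Kmt2a (-0.032 without WT replicate 2, -0.042 without CD274-null replicate 1, up to 0.43 without CD274-null replicate 2), Psip1 (-0.17 without WT replicate 2, up to 0.52 without WT replicate 1) and Dot1l (-0.10 without WT replicate 2, up to 0.50 without WT replicate 1, and -0.040 with GC correction, alone or with the replicate block); the cause was not tested. The other 106 of 108 values of the 9 genes in the other fits and 32 of 36 with a library left out kept their direction. Of all tested genes 10 had an adjusted p under 0.05, and 0 to 21 did in the alternatives. Candidates were 65.8% higher in CD274-null, 54.6% with quantile normalization, 55.7% with median scaling, 50.3% with GC correction and 79.6% to 80.4% without a CD274-null library.

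Whether samples with the same replicate number shared more than a number is not given in the sources used here. The correlation of their deviations from the group means across genes was -0.015. Such a value over genes, which are not independent replicates, cannot decide whether they shared a batch. With the replicate block 526 genes were candidates, 0 of the 9 and 3 of the listed others among them, and the median over the 9 genes was 0.20. Among those Paf1 was no longer a candidate. Counting error was widest for Mllt3 and Men1, at 265 to 508 and 286 to 427 reads per library.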
